A study of Mus musculus with 20 samples.

Results

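5-formylcytosine (5fC) was compared between the hindbrain and the heart of E11.5 *Tdg* null mouse embryos, gene body by gene body and stretch by stretch of the autosomes. The comparison used 6 of the 20 pull-down libraries of the series, 4 from hindbrain and 2 from heart, and all 21418 protein-coding genes that the annotation of NCBIM37 (mm9) places on the 19 autosomes. By the study's list of litter pairs, the hindbrain libraries came from 4 embryos of 4 litters, and the heart libraries from 2 embryos of 2 other litters, each library from 1 embryo. The hindbrain litters are called A, O, Q and Z here, after letters in the sample titles. The heart litters are called pair_a and pair_b, since the titles name the embryos, i1 and i5, but no litter. All 6 embryos carried 2 copies of the same constitutive null allele of *Tdg*, a neomycin resistance insertion that removes the part encoding the catalytic domain, and had heterozygous parents. WT embryos and the liver and carcass of both genotypes were used only to look at regions found in these 6 libraries. The tissues were dissected whole, so that more 5fC per cell and a larger share of cells carrying it cannot be told apart, and since no embryo gave both tissues, tissue cannot be told apart from embryo and litter.

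TET enzymes oxidise 5-methylcytosine stepwise to 5-hydroxymethylcytosine, 5fC and 5-carboxylcytosine. TDG is the glycosylase that excises the last pair of these bases so that repair can put an unmodified cytosine back, and in embryos without it 5fC persists at the places where TET enzymes are at work. Enhancers and bodies of active genes are known as such places, and TDG loss is lethal in mid gestation.

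The deposited data are positions of peaks, without heights or read counts, so the measure used throughout is scaled coverage, the share of a gene body lying under peaks divided by the share of the ungapped autosomes lying under peaks in the same library. A value of 1 is the library average, and a gene covered from end to end reaches 11.6 in heart 1, 25.8 in heart 2 and between 25.7 and 35.2 in the hindbrain libraries. Peaks covered 67.98 to 93.19 Mb of the autosomes in the hindbrain libraries and 205.7 and 92.66 Mb in heart 1 and heart 2, so heart 1 covered over 2 times as much as any other of the 6. Across the 14014 genes tested, log2 values of 2 libraries correlated with Pearson's r of 0.627 to 0.714 within a tissue and 0.204 to 0.266 between tissues, a description over genes, which are not replicates. A gene entered the test when its scaled coverage averaged at least 0.25 over the 6 libraries.

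The identity of the tissues was read from marker genes, with the same measure that the comparison uses, as a description. Of 7 cardiomyocyte markers, 5 were called higher in heart (*Tnnt2*, *Myh6*, *Myh7*, *Ryr2* and *Ttn*) and none higher in hindbrain, and their summed scaled coverage was 6.79 to 11.2 in the hindbrain libraries and 35.5 to 51.1 in the hearts. Of 7 neural markers, 3 were called higher in hindbrain (*Elavl3* and *Map2* among them) and none higher in heart, with sums of 9.91 to 15.1 against 3.99 to 5.35. The defining factors *Nkx2-5* of the heart and *Sox2* of neural progenitors had no base under a peak in any of the 6 libraries. None of the 4 endothelial markers was called, with sums of 6.71 to 7.75 in hindbrain and 11.7 to 11.9 in heart. The sums of the 4 erythroid markers were 1.06 to 2.62 in hindbrain and 2.65 to 3.36 in heart, all from *Slc4a1*, since *Hba-x*, *Hbb-bh1* and *Klf1* were at 0 in all 6 libraries. The 3 hepatocyte markers summed to 2.57 to 4.43 and 2.72 to 5.07, and the 3 neural crest markers to 1.88 to 5.98 and 1.58 to 2.16, with *Foxd3* at 0 throughout. The part of such other cells in the differences below was not tested.

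*Tdg* itself gave scaled coverages of 1.62, 0, 1.15 and 0.857 in the hindbrain libraries and 1.44 and 2.09 in the hearts. The groups overlapped, and the difference was not called (log2 difference 1.11, SE 0.84, adjusted p = 0.348 in the limma fit). Peaks over a gene do not show its sequence, so these values do not check the genotype.

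The first question was which gene bodies differed in the same way in every library. More genes were called higher in heart than in hindbrain, 2516 (18.0% of those tested) against 1320 (9.42%), at an adjusted p under 0.05. In all 3836 called genes every library of one tissue lay above every library of the other. Without a test, the libraries of 4762 genes (34.0%) were separated with heart above and those of 2642 genes (18.9%) with hindbrain above. Of the genes called higher in heart, 665 had no base under a peak in any hindbrain library, and 329 of those called higher in hindbrain had none in either heart. Such genes passed the filter only through the tissue where they had peaks, so their direction was fixed beforehand. A ranking by log2 difference also favours them, so being bare of peaks is no separate finding for the top genes below. At an unadjusted p under 0.05 there were 5924 genes.

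The balance of the 2 directions depended on how libraries were scaled. The median difference over all genes tested was 0.27 on the log2 scale, in favour of heart, and with quantile normalised libraries, where this median was -0.03, 1608 genes were called higher in heart and 1986 higher in hindbrain. When libraries were scaled to their median gene the counts were 664 and 886. The calls higher in heart made up 65.6% of all calls in the main comparison, 44.7% after quantile normalisation and 42.8% after scaling to the median gene. Every difference below should therefore be read against the median of 0.27, and none of the 48 genes chosen by the naming rule changed its direction under any of the 17 alternatives.

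Among genes of at least 10 kb, the 10 with the largest difference in favour of hindbrain were almost bare of peaks in heart. *Mfng*, which encodes a glycosyltransferase that modifies Notch receptors, had scaled coverages of 4.76, 8.21, 6.54 and 5.69 in the hindbrain libraries and 0 in both hearts (adjusted p = 0.00027). *Chrnb2*, which encodes a subunit of neuronal nicotinic acetylcholine receptors, had 3.98, 6.61, 4.78 and 5.05 and again 0 in both hearts (adjusted p = 0.00027). *Fgfr3*, a receptor for fibroblast growth factors, had 2.05, 3.21, 3.31 and 3.35 and 0 in both hearts (adjusted p = 0.000477). In these 3 genes each hindbrain library stood above the library average while no heart peak touched the gene. After thinning to equal covered length the calls of *Fgfr3*, *Nptxr* and *Vrtn* were lost (adjusted p = 0.224, 0.224 and 0.422). With peaks of at least 600 bp that of *C4b* was lost (adjusted p = 0.352), and with 10 kb on each side that of *Cd22* (log2 difference -0.78 in place of -3.63, adjusted p = 0.0507). *Nptxr*, the neuronal pentraxin receptor, *Vrtn*, *Ghrhr*, the receptor for growth hormone-releasing hormone, *C4b*, a complement component, *Vars2*, a mitochondrial tRNA synthetase, and 4732456N10Rik were also at 0 in both hearts, with hindbrain values between 1.55 and 4.55. *Cd22*, a lectin known from B cells, ran from 3.16 to 5.67 in hindbrain and had 0.203 in heart 1 and 0 in heart 2. The group thus holds neuronal receptors next to genes known from other organs.

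Of the 10 genes at the other end, 8 were bare of peaks in all 4 hindbrain libraries. *Slc38a2*, an amino acid transporter, had scaled coverages of 5.56 and 6.09 in the hearts and 0 in all 4 hindbrain libraries (adjusted p = 0.000225). *Rela*, a subunit of NF-kappa B, had 4.08 and 8.08 and 0 in all 4 (adjusted p = 0.000521), and *Etv3*, a transcriptional repressor of the ETS family, had 3.69 and 7.36 and 0 in all 4 (adjusted p = 0.000575). The call of *Rela* was lost after thinning (adjusted p = 0.285) and with 10 kb on each side (log2 difference 0.99, adjusted p = 0.0509), and that of *Myadm* after thinning (adjusted p = 0.286). *Eif4ebp1*, a repressor of translation, reached 7.06 and 11.6 in the hearts, with 1.02 in hindbrain 1 and 0 in the other three, and lost its call after thinning (adjusted p = 0.0746) and without either heart. *Zfp295*, *Myadm*, *Ociad1*, *Gmfb* and 9230112D13Rik were at 0 in every hindbrain library and between 2.80 and 5.98 in the hearts. *Ehd2*, an ATPase of caveolae, had 4.86 and 6.27 in the hearts and 0.649 in hindbrain 3 alone. Where all libraries of one tissue are at 0 that tissue shows no spread of its own, and no fold difference is given.

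Lists of cardiac, neural and other genes are described next. They were written with results of the series known, and each is described by its counts beside the background of 18.0% and 9.42%.

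**Figure D1:**
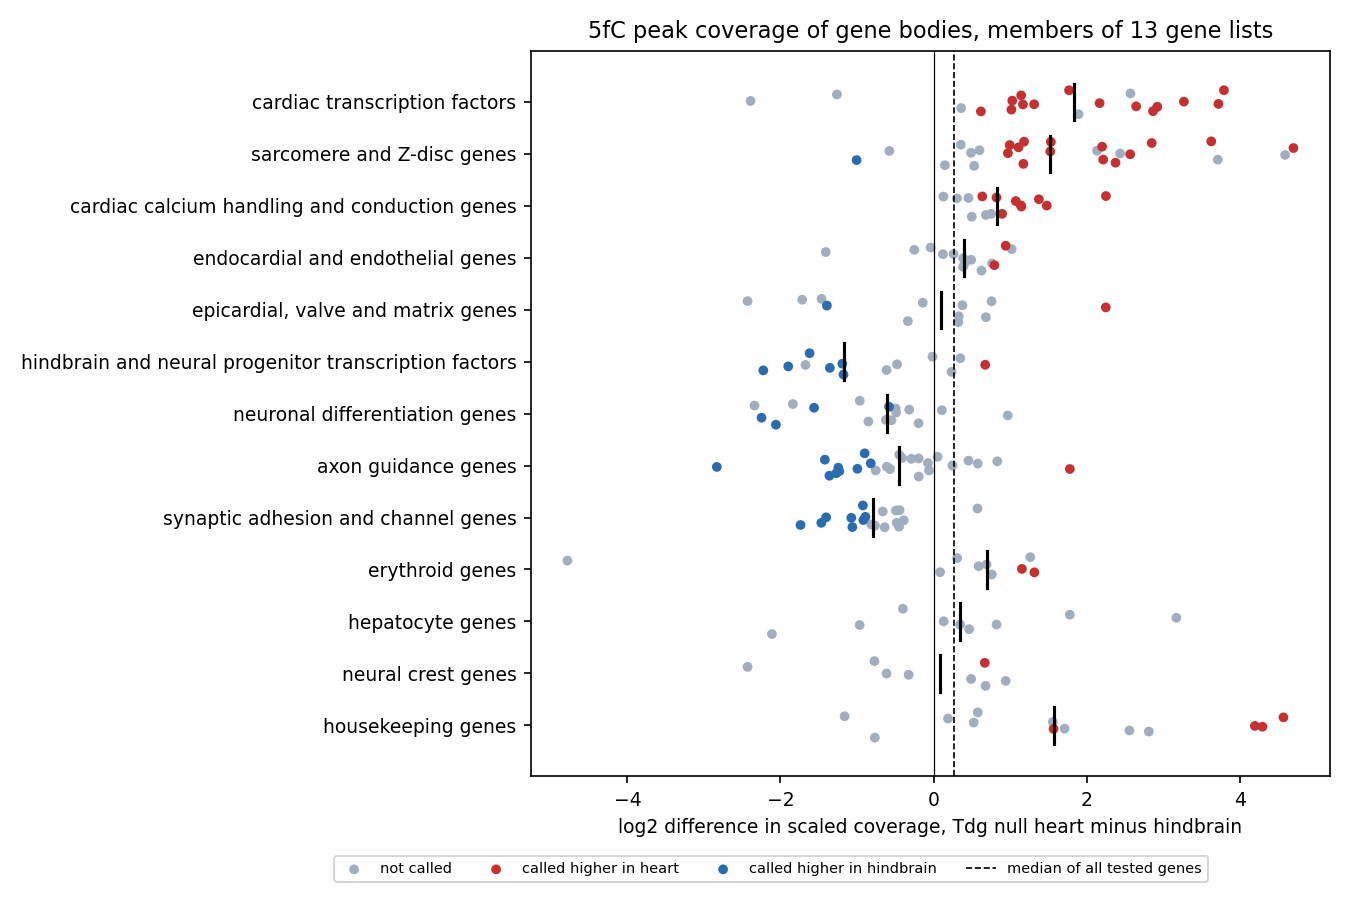
Each point is 1 tested gene of a list, placed by the log2 difference in scaled coverage between *Tdg* null heart (n = 2) and hindbrain (n = 4), with called genes in colour, list medians as bars and the median of all 14014 tested genes (0.27) as a dashed line. Called cardiac genes lie to the right, apart from *Xirp2* and *Col1a2*, and called neural genes to the left, apart from *Nfib* and *Unc5b*, while the median of the housekeeping genes, 1.57, lies as far right as that of the sarcomere genes, 1.53.

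Transcription factors of the heart were covered more in heart than in hindbrain: 14 of the 20 tested (70%) were called higher in heart, 0 higher in hindbrain, with a median log2 difference of 1.83. *Gata4*, which drives cardiomyocyte differentiation together with NKX2-5 and TBX5, had scaled coverages of 0.648, 0.581, 0.588 and 0.459 in the hindbrain libraries and 6.07 and 9.59 in the hearts. Every hindbrain library was below the library average and both hearts far above it, with a log2 difference of 3.27 (SE 0.23, adjusted p = 0.000545) and a call that held under all 17 alternatives. *Gata5* had 4.75 and 2.16 in the hearts and 0 in all 4 hindbrain libraries (adjusted p = 0.00139). *Tbx2*, a T-box repressor of chamber genes, had 2.60 and 3.57 against 0 in all 4 (adjusted p = 0.000472), but with 10 kb added on each side 3 hindbrain libraries gained peaks and the call was lost (adjusted p = 0.252), as it was after thinning to equal covered length (adjusted p = 0.294). *Gata6*, *Tbx5* and *Tbx20*, named here after their values were seen, were called as well, with log2 differences of 2.87, 1.77 and 2.92. *Srf* and *Hey1* leaned the other way without being called (log2 differences of -2.39 and -1.26). *Nkx2-5*, *Hand1* and *Hand2*, whose bodies measure 2.90 to 4.11 kb, held no peak base in any of the 6 libraries. With scaling to the median gene 6 of the 20 were called, where 664 of 13941 genes were called higher in heart. After thinning 6 of 20 were called as well, where 819 of 13628 genes were. The count of called members ranged from 6 to 16 over the alternatives that kept every library, and from 9 to 15 when 1 library was left out.

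Genes of the sarcomere and the Z-disc were also covered more in heart, 14 of 25 (56%) being called, with a median of 1.53. *Tnni3*, cardiac troponin I, had 8.83 and 17.0 in the hearts, 3.16 in hindbrain 3 and 0 in the other hindbrain libraries (adjusted p = 0.04). The call of *Tnni3* was lost under 10 of 17 alternatives. *Mybpc3*, cardiac myosin-binding protein C, had 5.37 and 7.03 in the hearts, 0.767 and 0.873 in hindbrain 2 and 3 and 0 in the other two (log2 difference 3.63, SE 0.79, adjusted p = 0.0244). The call of *Mybpc3* was lost under 5 of 17 alternatives, with a pseudocount of 0.1 (adjusted p = 0.0511), peak midpoints (0.104), scaling to the median gene (0.0531) and either heart left out. Here again both hearts stood above all hindbrain libraries. The myosin heavy chains *Myh7* and *Myh6* differed by 2.57 and 2.22, and *Ttn*, the giant spring protein titin, by 1.11, its 4 hindbrain values lying between 0.818 and 0.95 and its heart values at 2.10 and 2.25. *Xirp2*, an actin-binding repeat protein of striated muscle, was the 1 member called higher in hindbrain, with 0.845 to 1.18 against 0.39 and 0.352 (log2 difference -1.005, adjusted p = 0.019). Its call was lost under 6 of 17 alternatives, with log2 differences of -0.55 (adjusted p = 0.103) with 10 kb on each side and -0.51 (adjusted p = 0.557) after thinning. Fewer members, and fewer of all genes, were called higher in heart when either heart was left out. Scaling libraries to their median gene left 2 calls of 25, where 664 of 13941 genes were called higher in heart. Peak midpoints left 5, where 1699 of 14652 genes were called so, and thinning left 8, where 819 of 13628 were.

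Calcium handling and conduction genes gave 9 of 15 called higher in heart (60%), 0 higher in hindbrain and a median of 0.82. The count was 6 with quantile normalisation, where 1608 of 14014 genes were called higher in heart, and 3 after thinning, where 819 of 13628 were. *Jph2*, junctophilin 2, which holds the sarcoplasmic reticulum against the T-tubules, had 3.36, 1.60, 2.61 and 1.39 in hindbrain and 8.43 and 14.4 in heart (log2 difference 2.25, SE 0.41, adjusted p = 0.0141). Both hearts lay above every hindbrain library, and heart 1 can reach no more than 11.6. *Ryr2*, the calcium release channel, had 0.596, 0.54, 0.647 and 0.672 in hindbrain and 1.88 and 2.47 in heart (log2 difference 1.48, SE 0.19, adjusted p = 0.00462). Both genes were called in this fit, and neither was when libraries were scaled to their median gene (adjusted p = 0.102 and 0.192). In that setting 0 members of the list and 664 of 13941 genes were called higher in heart. *Jph2* also lost its call with peak midpoints (0.0917), after thinning (0.0574) and without heart 2 (0.108).

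Of 14 endocardial and endothelial genes 2 (14.3%) were called higher in heart, against the background of 18.0%, while both hearts lay above every hindbrain library in 10 of the 14 (71.4%, against 34.0% of all genes). The called genes were *Eng*, a co-receptor for TGF-beta ligands, with 2.92 to 4.58 in hindbrain and 6.74 and 7.73 in heart (log2 difference 0.94, SE 0.20, adjusted p = 0.0243), and *Nfatc1*, a factor of the endocardium, with 3.29 to 4.54 against 6.21 and 7.01 (log2 difference 0.80, SE 0.18, adjusted p = 0.0262). Both calls were lost under 7 of 17 alternatives, and without hindbrain 3 or heart 2 no member was called. Of 12 epicardial, valve and matrix genes 1 was called in each direction. *Wt1*, a factor of the epicardium, had 0.278, 0.299, 0 and 0.382 in hindbrain and 1.78 and 2.14 in heart (log2 difference 2.25, adjusted p = 0.017), a call lost when either heart was left out, with peak midpoints (adjusted p = 0.116), with scaling to the median gene (0.0932) and after thinning (0.0804). *Col1a2*, a chain of type I collagen, had 0.927 to 1.47 in hindbrain and 0.349 and 0.211 in heart (log2 difference -1.39, adjusted p = 0.0153). The call of *Col1a2* was lost with scaling to the median gene (adjusted p = 0.0595), after thinning (0.0593) and without heart 2 (0.0859), and the gene held 0 hindbrain-only stretches and 1 heart-only stretch of 300 bp.

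**Figure D2:**
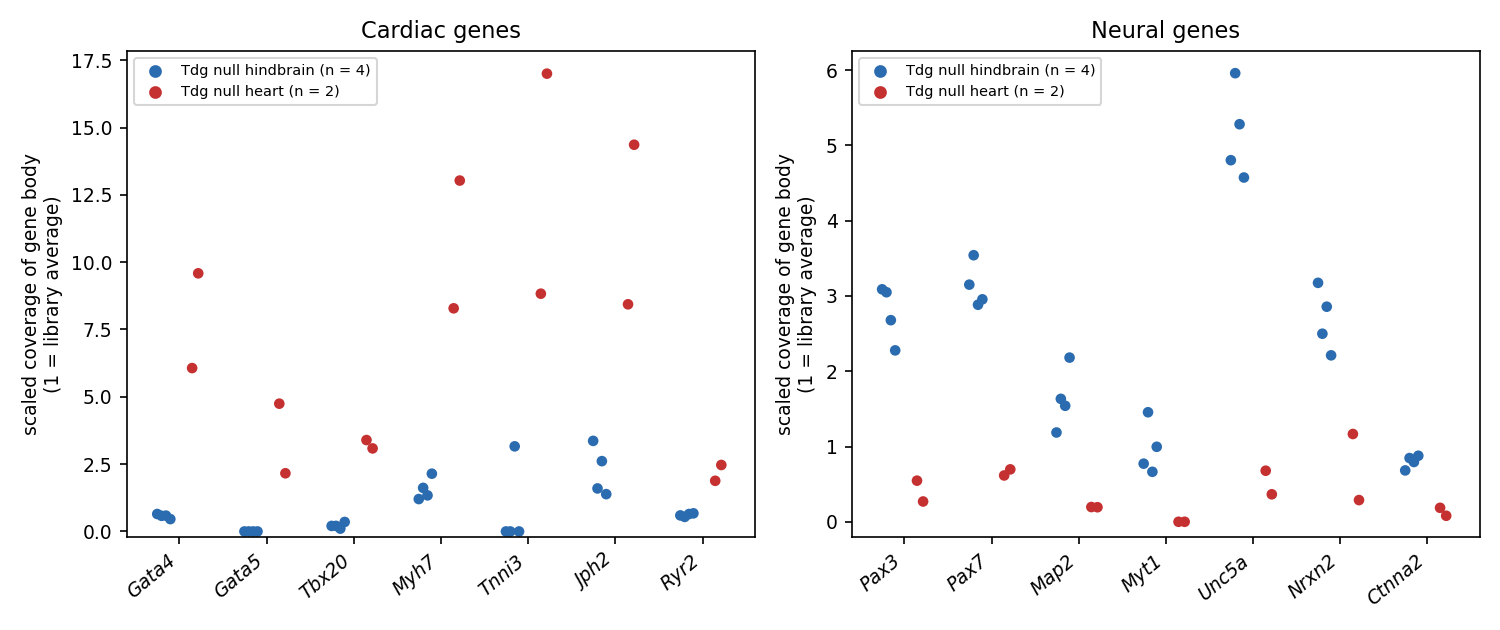
Scaled coverage of the gene body (1 is the library average) is plotted for 7 cardiac and 7 neural genes, 1 point per library, blue for *Tdg* null hindbrain (n = 4) and red for *Tdg* null heart (n = 2). In each of these genes the 2 groups do not overlap; the cardiac genes reach 17.0 in heart and the neural genes 5.96 in hindbrain.

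The genes that led these lists, and *Gata4*, carried stretches of at least 200 bp under peaks of both hearts and of no hindbrain library. *Gata4* (chr14:63817759-63890529, minus strand) held 21 of them, 22800 bp in all, the longest 3800 bp of intron at chr14:63850401-63854200, and 500 bp shared by all 6 libraries. *Gata5* held 1 stretch of 800 bp, *Tnni3* 2 of together 3000 bp, *Jph2* 26 of together 25200 bp and *Ryr2* 64 of together 41500 bp. Of these 5 genes *Ryr2* also held stretches of the reverse kind, 2 of together 1100 bp, as did *Nfatc1*, with 2 of together 800 bp. The central 200 bases of the longest stretch in *Gata4* and in the leading gene of each of the 3 lists are given below, to show what the marked sequence is. They are the plus strand of NCBIM37, 5′ to 3′, with CpG dinucleotides, the usual site of methylation and hence of 5fC, in capitals.
*Gata4*, chr14:63852201-63852400: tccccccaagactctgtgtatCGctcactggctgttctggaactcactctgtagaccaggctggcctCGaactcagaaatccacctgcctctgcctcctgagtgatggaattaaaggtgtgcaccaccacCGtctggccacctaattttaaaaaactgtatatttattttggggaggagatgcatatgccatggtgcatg
*Gata5*, chr2:180066801-180067000: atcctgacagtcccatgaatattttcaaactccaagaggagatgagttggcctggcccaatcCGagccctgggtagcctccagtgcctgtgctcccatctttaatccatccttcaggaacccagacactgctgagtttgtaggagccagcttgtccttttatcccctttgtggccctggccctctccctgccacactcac
*Tnni3*, chr7:4474201-4474400: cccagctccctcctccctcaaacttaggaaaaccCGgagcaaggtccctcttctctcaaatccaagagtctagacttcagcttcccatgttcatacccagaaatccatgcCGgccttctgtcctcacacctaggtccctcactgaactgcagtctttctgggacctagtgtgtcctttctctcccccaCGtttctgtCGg
*Jph2*, chr2:163181551-163181750: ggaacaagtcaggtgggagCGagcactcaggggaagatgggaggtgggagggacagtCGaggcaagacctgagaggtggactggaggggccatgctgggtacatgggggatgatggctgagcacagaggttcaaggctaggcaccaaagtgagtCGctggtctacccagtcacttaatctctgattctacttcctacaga
The 4 hold between 1 and 4 CpGs in 200 bases.

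Of 13 tested transcription factors of the hindbrain and of neural progenitors, 6 (46.2%) were called higher in hindbrain and 1 (7.69%) higher in heart, with a median of -1.18. *Pax3*, a paired box factor of the dorsal neural tube and the neural crest, had 3.09, 3.05, 2.68 and 2.28 in hindbrain and 0.546 and 0.27 in heart. All hindbrain values lay above 2 and both heart values below the library average, with a log2 difference of -2.22 (SE 0.24, adjusted p = 0.00232). *Pax7*, its closest relative, had 3.15, 3.54, 2.88 and 2.96 against 0.615 and 0.696 (log2 difference -1.90, SE 0.15, adjusted p = 0.000788). Both calls held under all 17 alternatives. *Pax2*, *Lmx1a*, *Lmx1b* and *Dbx2*, the other called members, differed by -1.62, -1.18, -1.35 and -1.19. *Nfib*, a nuclear factor I protein that is also used outside the nervous system, was called higher in heart, with 1.99 to 2.29 in hindbrain and 3.67 and 3.58 in heart (log2 difference 0.68, SE 0.13, adjusted p = 0.0167), a call lost under quantile normalisation (adjusted p = 0.128), under scaling to the median gene (0.778), after thinning (0.0668) and without hindbrain 3 (0.0537). Taken over all bases of the list, which the long genes *Nfia*, *Nfib* and *Meis2* dominate, scaled coverage was 2.23 to 2.30 in hindbrain and 2.23 and 2.18 in heart.

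Neuronal differentiation genes gave 4 of 17 (23.5%) called higher in hindbrain and 0 higher in heart, with a median of -0.60. After thinning to equal covered length 1 of the 17 was called, when 681 of 13628 genes were called higher in hindbrain. *Map2*, a microtubule-associated protein of dendrites, had 1.19, 1.63, 1.54 and 2.18 in hindbrain and 0.196 and 0.193 in heart (log2 difference -2.06, SE 0.25, adjusted p = 0.004). *Myt1*, a zinc finger factor of early neurons, had 0.772, 1.46, 0.664 and 0.996 and no peak in either heart (adjusted p = 0.00676), a call lost after thinning (adjusted p = 0.182). *Elavl3*, an RNA-binding protein of neurons, and *Ebf1* were the other 2, with log2 differences of -1.56 and -0.58. *Tubb3*, a neuronal tubulin, had 0, 0, 1.01 and 5.09 in hindbrain and 1.45 and 1.22 in heart and was not called (adjusted p = 0.603).

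Of 25 axon guidance genes 9 (36%) were called higher in hindbrain and 1 higher in heart, with a median of -0.45. *Unc5a*, a netrin receptor of neurons, had 4.80, 5.96, 5.28 and 4.57 in hindbrain and 0.678 and 0.365 in heart (log2 difference -2.83, SE 0.22, adjusted p = 0.000741), a call held under all 17 alternatives. *Dcc*, the other main netrin receptor, had 0.595, 0.951, 0.798 and 1.06 against 0.179 and 0.135 (log2 difference -1.42, SE 0.27, adjusted p = 0.0155), a call lost without the filter (adjusted p = 0.0511), with scaling to the median gene (0.0696) and without heart 2 (0.0737). *Unc5b*, the family member known from endothelium, went the other way, with 2.24, 2.86, 2.33 and 2.42 in hindbrain and 7.04 and 11.6 in heart (log2 difference 1.78, SE 0.23, adjusted p = 0.00489). The call of *Unc5b* was lost with scaling to the median gene (adjusted p = 0.208) and with peak midpoints (adjusted p = 0.0639). *Unc5c* and *Unc5d* were called higher in hindbrain, at -1.36 and -1.27. The slit receptors *Robo1* and *Robo2* and the ligand *Slit2* were called higher in hindbrain as well (log2 differences of -0.99, -1.24 and -0.82), whereas *Slit3* gave 3.04 to 3.47 in hindbrain and 3.60 and 3.18 in heart (adjusted p = 0.777). Without hindbrain 3 the list had 5 calls, where 768 of 14033 genes were called higher in hindbrain. The count of the list also fell without heart 2, as did that of all genes. With scaling to the median gene, where 886 of 13941 genes were called higher in hindbrain, it was 2, and after thinning, where 681 of 13628 were, it was 4.

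Synaptic adhesion and channel genes gave 8 of 18 (44.4%) called higher in hindbrain and 0 higher in heart, with a median of -0.79. *Nrxn2*, a presynaptic neurexin, had 3.17, 2.50, 2.86 and 2.21 in hindbrain and 1.17 and 0.288 in heart (log2 difference -1.74, SE 0.40, adjusted p = 0.0297), and lost its call under 8 of 17 alternatives, among them leaving out any 1 hindbrain library or heart 2. *Ctnna2*, the neuronal alpha-catenin, had 0.682, 0.847, 0.794 and 0.877 against 0.185 and 0.08 (log2 difference -1.47, SE 0.24, adjusted p = 0.01), a call lost with scaling to the median gene (adjusted p = 0.0523) and after thinning (adjusted p = 0.0586). *Ctnna2* measures 1098 kb and lay below the library average in both tissues. The other 8 matched members, among them *Cntnap2* and *Lrp1b*, were too sparsely covered to be tested, none of them above 0.439 in any library. The count of calls was 7 without hindbrain 1, 3 without hindbrain 2, 2 without hindbrain 3 and 3 without hindbrain 4. In these settings 768 to 1155 of all genes were called higher in hindbrain. The count fell without heart 2 and rose without heart 1, as did that of all genes. It was 1 of 21 tested with scaling to the median gene, no more than the share of all genes called in that setting. After thinning it was 2 of 19, where 681 of 13628 genes were called.

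Stretches under peaks of all 4 hindbrain libraries and of neither heart were found in each leading gene. *Pax3* (chr1:78097842-78193709, minus strand) held 6 of them, 3200 bp in all, *Unc5a* (chr13:55050772-55107379, plus strand) 5 of together 6000 bp, *Nrxn2* 5 of together 3400 bp and *Myt1* 2 of together 1000 bp. *Pax3* and *Unc5a* also held heart-only stretches, 2 of together 1000 bp and 1 of 800 bp. The central 200 bases of the longest hindbrain-only stretch of each gene follow, printed in the same way, with CpGs in capitals.
*Pax3*, chr1:78118051-78118250: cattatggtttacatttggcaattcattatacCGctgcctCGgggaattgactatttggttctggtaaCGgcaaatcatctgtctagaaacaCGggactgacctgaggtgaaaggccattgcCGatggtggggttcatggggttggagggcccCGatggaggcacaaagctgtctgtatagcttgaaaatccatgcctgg
*Myt1*, chr2:181501601-181501800: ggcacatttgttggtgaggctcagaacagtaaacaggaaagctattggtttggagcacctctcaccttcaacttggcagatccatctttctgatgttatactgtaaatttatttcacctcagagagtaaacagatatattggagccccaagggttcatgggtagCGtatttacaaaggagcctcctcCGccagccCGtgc
*Unc5a*, chr13:55098951-55099150: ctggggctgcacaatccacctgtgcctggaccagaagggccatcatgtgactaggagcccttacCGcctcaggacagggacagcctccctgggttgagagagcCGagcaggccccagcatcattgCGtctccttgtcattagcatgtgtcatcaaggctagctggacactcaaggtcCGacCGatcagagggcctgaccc
*Nrxn2*, chr19:6514751-6514950: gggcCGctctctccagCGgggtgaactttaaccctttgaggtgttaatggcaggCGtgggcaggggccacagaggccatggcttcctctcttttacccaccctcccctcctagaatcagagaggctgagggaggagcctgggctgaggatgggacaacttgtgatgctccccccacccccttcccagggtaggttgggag
These 4 hold between 3 and 6 CpGs in 200 bases.

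**Figure D3:**
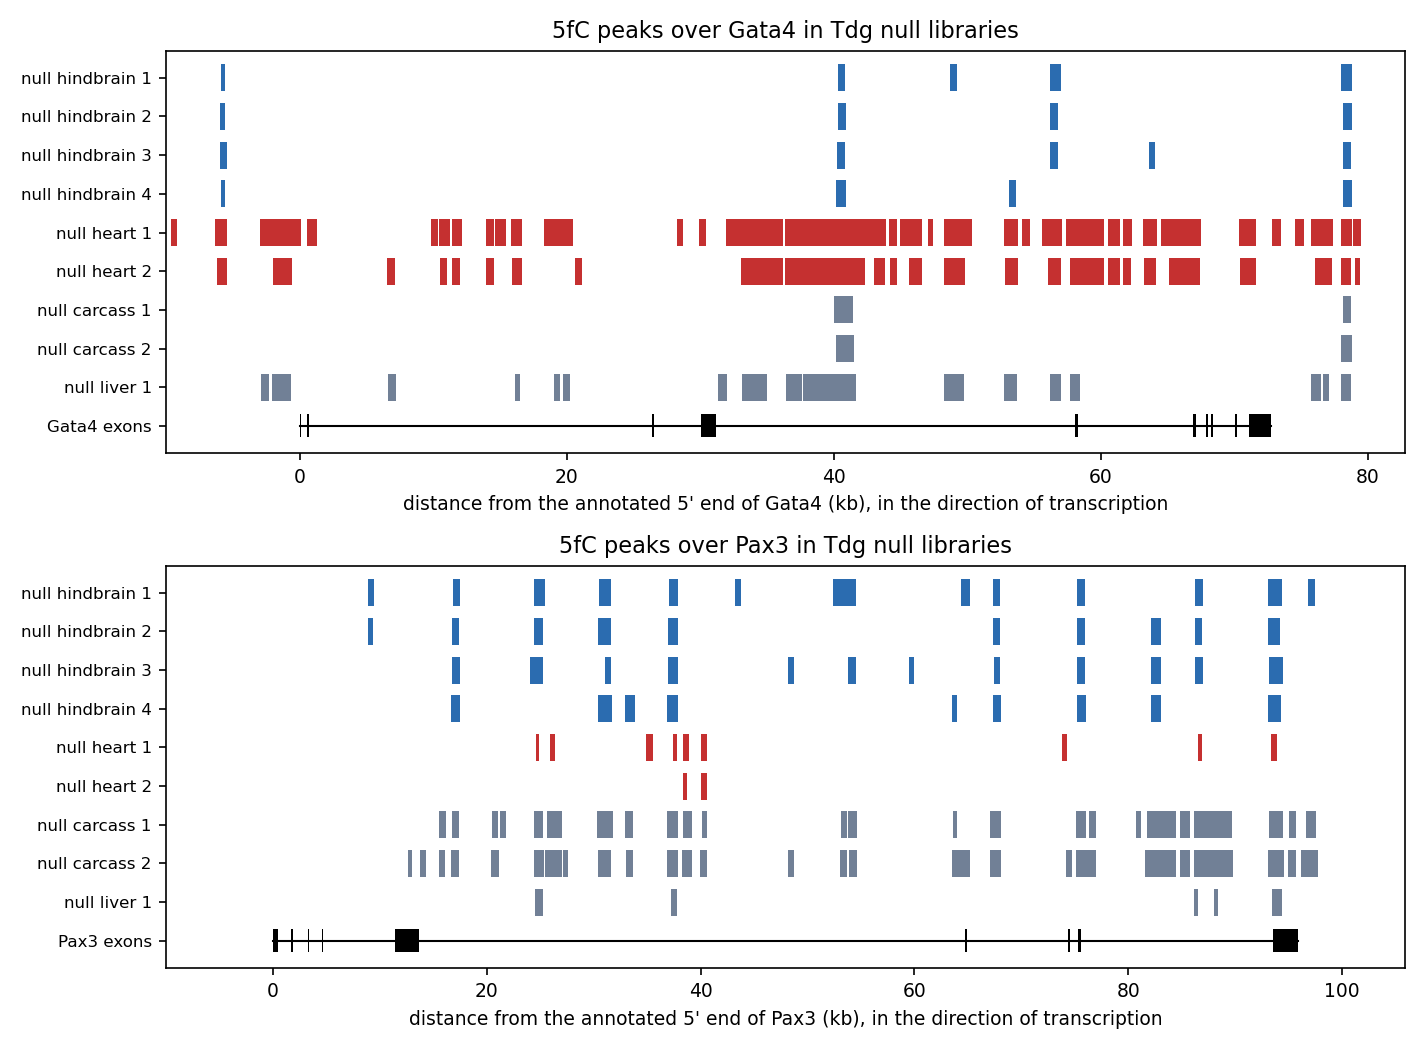
Peaks of the 6 *Tdg* null hindbrain (blue) and heart (red) libraries and of the *Tdg* null carcass and liver libraries (grey) are drawn along *Gata4* and *Pax3*, in kb from the annotated 5′ end, with the exons of all transcripts as black boxes. *Gata4* is overlapped by 2 or 3 peaks in each hindbrain library, 27 and 22 in the hearts, 1 in each carcass and 13 in the liver; *Pax3* by 9 to 12 in hindbrain, 9 and 2 in heart, 23 and 27 in carcass and 5 in liver.

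Lists of other cells and functions were read in the same way. Of 9 erythroid genes 2 were called higher in heart: *Ank1*, the ankyrin of the red cell membrane, with 1.72 to 2.01 in hindbrain and 3.60 and 5.44 in heart (log2 difference 1.15, SE 0.20, adjusted p = 0.0115; 0.74 and adjusted p = 0.415 with scaling to the median gene), and *Epor*, the erythropoietin receptor, with 0.659 to 1.23 against 1.79 and 3.42 (log2 difference 1.32, SE 0.33, adjusted p = 0.037). The call of *Epor* was lost under 10 of 17 alternatives. Of 9 hepatocyte genes 0 were called in either direction, and under the alternatives at most 2 were called in one direction. Of 8 neural crest genes 1 was called, *Mitf*, a factor of melanocytes, with 1.69 to 2.17 in hindbrain and 3.27 and 3.35 in heart (log2 difference 0.67, adjusted p = 0.0262), a call lost under 8 of 17 alternatives. Of 13 housekeeping genes 4 (30.8%) were called higher in heart and 0 higher in hindbrain, and their median was 1.57. *Rplp0*, a protein of the large ribosomal subunit, had 4.098 and 7.88 in the hearts and 0 in all 4 hindbrain libraries (adjusted p = 0.000492). Its call was lost after thinning (adjusted p = 0.285), and with 10 kb on each side it had 1.74 to 2.86 in hindbrain and 4.37 and 4.68 in heart (log2 difference 0.87). The gene is short, 4.26 kb, and a difference of this kind was thus not found in cardiac genes alone.

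Many developmental regulators could not be compared on their gene bodies at all. Of 34 matched transcription factors of the hindbrain and of neural progenitors, 20 had no base under a peak in any of the 6 libraries, and so had 8 of 9 anterior *Hox* genes, which pattern the hindbrain into rhombomeres. The bodies of the 20 factors were short, with a median of 3.93 kb, against 15.5 kb for all genes and 2.51 kb for the 5432 genes without a peak base in all 6 libraries. With 10 kb added on each side of every gene, 24 of the 34 factors could be tested and 12 were called higher in hindbrain, where 12.2% of all genes tested in this way were called higher in hindbrain and 18.7% higher in heart. In the same fit 16 of 21 cardiac transcription factors and 19 of 25 sarcomere genes were called higher in heart, and so were 8 of 15 housekeeping and 3 of 14 erythroid genes.

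*Sox2*, the defining factor of neural progenitors, then had scaled coverages of 1.17, 4.39, 3.21 and 2.29 in hindbrain and 0 in both hearts (adjusted p = 0.00531). *Dbx1*, a factor of ventral interneuron progenitors, had 1.03, 1.25, 0.949 and 1.11 and 0 in both hearts (adjusted p = 0.00347). The proneural factor *Neurog1* had 0.753 to 1.18 against 0.18 and 0 (adjusted p = 0.00864). These 3 genes, named after their values were seen, had no peak in the body and peaks within 10 kb in every hindbrain library. The neurofilament gene *Nefl* had 1.04, 3.49, 1.91 and 1.83 and 0 in both hearts (adjusted p = 0.00543). On the side of the heart, *Hand2* had 1.33 and 0.768 in the hearts and 0 in all 4 hindbrain libraries (adjusted p = 0.00553), and *Hand1* 1.35 and 1.92 against 0.426 to 0.73 (log2 difference 1.16, SE 0.26, adjusted p = 0.0188). Cardiac actin *Actc1*, not called on its body, was called with its surroundings, at 5.14 and 5.02 against 1.07 to 1.99 (log2 difference 1.64, SE 0.23, adjusted p = 0.00575). The 9 matched anterior *Hox* genes still had too little coverage to be tested.

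**Figure D4:**
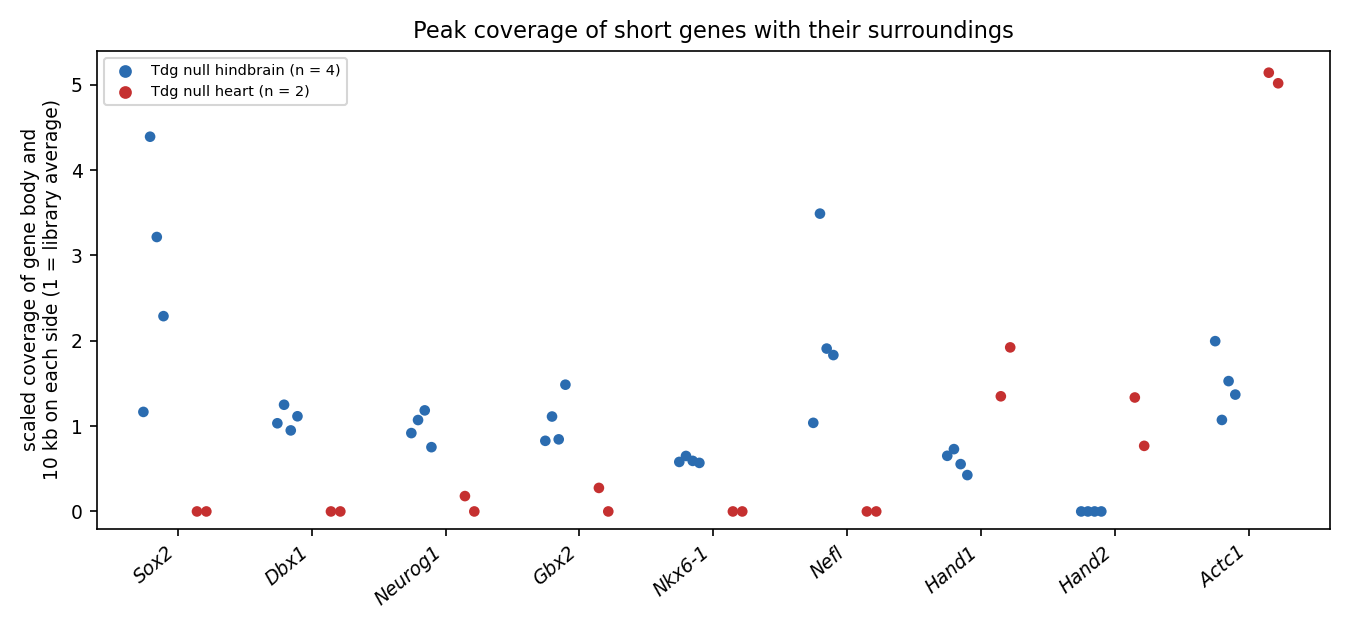
Scaled coverage of the gene body with 10 kb on each side is plotted for 9 genes, 1 point per library, blue for *Tdg* null hindbrain (n = 4) and red for *Tdg* null heart (n = 2). *Sox2*, *Dbx1*, *Nkx6-1* and *Nefl* are at 0 in both hearts and above 0 in every hindbrain library, and *Hand2* shows the reverse.

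The called genes were then described by where their peaks lay. In genes called higher in hindbrain the coverage per base was higher over exons than over introns: scaled coverage in the hindbrain libraries was 3.05 to 3.45 in their exons, 1.45 to 1.66 in their introns and 1.85 to 2.01 in the 1000 bp upstream. Over all genes tested the same libraries gave 2.00 to 2.10 in exons and 1.48 to 1.51 in introns. Genes called higher in heart had lower coverage over exons than over introns in the hearts, with 2.88 and 3.87 in exons, 3.14 and 3.95 in introns and 2.12 and 2.27 upstream. Over all genes tested the hearts gave 2.11 and 2.42 in exons and 1.72 and 1.85 in introns, and in the genes called higher in heart the hindbrain libraries too had less over exons (1.28 to 1.38) than over introns (1.47 to 1.57). Along these genes, cut into 10 equal parts, coverage in the hearts was 3.38 and 4.21 in the first part, 3.50 and 4.495 in the second and 2.69 and 3.29 in the last, and the hindbrain libraries also had less in the last part than in the first. These genes were longer, with a median of 31.7 kb, than those called higher in hindbrain (24.2 kb) or all genes tested (24.0 kb). Their median GC content (46.1% and 46.7%) and CpG density (13.01 and 12.7 CpGs per kb) were close to those of all genes tested (46.6% and 13.3 per kb). The called genes were chosen on the same peaks, so these figures are descriptions, with no test.

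Stretches were then defined without regard to genes, from the 6 libraries alone. Runs of at least 200 bp under peaks of all 4 hindbrain libraries and of neither heart numbered 27601 and covered 13.7 Mb, with a median of 500 bp. Runs under peaks of both hearts and of no hindbrain library numbered 81213 and covered 51.1 Mb, with a median of 600 bp. Runs shared by all 6 libraries numbered 22428 and covered 14.7 Mb. The first rule asks for 4 libraries and the second for 2, so the 2 counts cannot be set against each other, and after thinning all libraries to an equal covered length they were 17348 and 20623. All 3 kinds were richer in CpGs than the autosomes (8.51 per kb), with 17.0 per kb in hindbrain-only, 15.3 per kb in heart-only and 20.4 per kb in shared stretches. Of their bases 46.1%, 65.6% and 58.8% lay in protein-coding genes, against 39.6% of the autosomes, and 2.96%, 4.01% and 6.14% of the stretches had their centre within 2 kb of a transcription start.

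The longest heart-only stretches lay in introns and were runs of 6 to 8 kb. They were 7600 bp in *Jmjd1c* (chr10:66564301-66571900), a gene of the family of jumonji histone demethylases, 6900 bp in *Mtss1* (chr15:58815201-58822100), 6600 bp in *Gse1* (chr8:123070501-123077100) and 6500 bp in *Ski* (chr4:154588301-154594800), a repressor of TGF-beta signalling. None was confined to the heart: peaks covered 86.4% to 100% of each of the 4 in the carcasses of the same 2 embryos and 81.2% to 100% in the liver of the embryo that gave heart 1. At most 11.6% of any of them was covered in a WT hindbrain library and at most 7.89% in a WT heart library.

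The longest hindbrain-only stretches were shorter and differed from each other in kind. The first, 2700 bp between genes at chr13:74665801-74668500, held 1 CpG, and lay wholly under peaks in all 4 WT hindbrain libraries and to 92.6% and 100% in the WT hearts, but under no peak in carcass or liver of either genotype. The next, 2600 bp between genes at chr5:112430101-112432700, 2500 bp in an intron of *Ulk4* (chr9:120946201-120948700) and, at equal length, 2400 bp over exon and intron of *Trim62* (chr4:128563701-128566100) and 2400 bp in an intron of *Mxi1* (chr19:53418301-53420700), held 40 to 69 CpGs and were covered to between 84% and 100% in both *Tdg* null carcasses. The first stretch therefore stood apart from the other 4 in CpG content and in the libraries that share it. The central 200 bases of the longest stretch of each kind are shown to make the contrast visible, with CpGs in capitals.
Longest heart-only stretch, in *Jmjd1c*, chr10:66568001-66568200: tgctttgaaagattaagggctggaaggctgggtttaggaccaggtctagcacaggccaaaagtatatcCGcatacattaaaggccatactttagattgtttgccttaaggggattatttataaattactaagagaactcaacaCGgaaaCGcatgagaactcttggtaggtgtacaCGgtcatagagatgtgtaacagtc
Longest hindbrain-only stretch, intergenic, chr13:74667051-74667250: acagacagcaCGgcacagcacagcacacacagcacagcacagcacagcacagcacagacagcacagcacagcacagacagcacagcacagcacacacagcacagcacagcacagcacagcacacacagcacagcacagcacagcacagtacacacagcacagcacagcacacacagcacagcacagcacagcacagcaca
The first holds 4 CpGs, and the second is a run of short repeated units with 1.

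Sequence motifs were counted in the central 200 bp of each stretch, on both strands, beside all 11968110 windows of the same length tiled over the ungapped autosomes. The GATA letters AGATAA were found in 20.8% of heart-only stretches, 6.95% of hindbrain-only stretches, 11.8% of shared stretches and 13.2% of all windows. The MEF2 core motif was found in 4.09%, 1.76%, 2.64% and 3.39% in the same order. The homeodomain letters TAATTA ran the other way, with 2.69% of heart-only, 8.43% of hindbrain-only and 4.55% of shared stretches and 7.15% of all windows, and so did the SOX letters ACAATNG, with 5.01%, 9.85%, 6.98% and 7.97%. Of the E-box letters, CATCTG was found in 16.1% of heart-only and 23.1% of hindbrain-only stretches (15.04% of all windows) and CAGCTG in 13.3% and 17.7% (7.37% of all windows). The shares of the remaining letters are given for heart-only stretches, hindbrain-only stretches and all windows. They were 13.6%, 10.8% and 11.3% for TNAAGTG of NKX2-5, and 13.6%, 11.6% and 10.8% for GGAATG of TEAD factors, which was found in 14.7% of shared stretches. They were 12.7%, 10.8% and 12% for CAGGTG, and 1.08%, 0.551% and 0.783% for AGGTGTGA of T-box factors, which can share bases with it. CATATG was rarer in both kinds of stretch (3.07% and 4.67%) than in all windows (6.28%), and GTTGCCA of RFX factors was found in 2.27%, 3.05% and 1.83%. GC content was 47.8% in heart-only, 46.9% in hindbrain-only and 41.9% in all autosomal sequence, so base composition differs from the windows as well. These shares describe letters, not bound sites.

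Libraries that had no part in choosing genes or stretches were looked at last, as a description. They are not independent of the 6, since the WT hindbrains came from the litters of the *Tdg* null hindbrains, the WT hearts from those of the *Tdg* null hearts, and the carcasses and liver from the same embryos as the hearts. Hindbrain-only stretches had scaled coverages of 41.8, 37.2, 32.1 and 30.7 in the WT hindbrain libraries and 5.87 and 8.45 in the WT hearts, while heart-only stretches had 0.0934, 0.241, 0.528 and 0.394 in the WT hindbrains and 7.12 and 5.12 in the WT hearts. In WT heart 2 the hindbrain-only stretches were thus covered more than the heart-only stretches. Hindbrain-only stretches had to lie under peaks of 4 libraries and heart-only stretches under peaks of 2. The part of these unlike rules in differences between the 2 kinds within a library, here and below, was not tested. In the carcasses of the embryos that gave the hearts, hindbrain-only stretches had 13.4 and 10.6, where full coverage gives 17.5 and 12.5, and heart-only stretches 2.97 and 3.35. Peaks of these carcasses thus covered 76.9% and 84.7% of the bases of hindbrain-only stretches and 17.0% and 26.8% of those of heart-only stretches. In the liver of the first of these embryos the order turned, with 3.19 for hindbrain-only and 10.3 for heart-only stretches, or 10.3% and 33.3% of their bases. The highest value possible differs between libraries, full coverage giving 2649 in WT hindbrain 1. WT libraries held few peaks, 0.856 to 11.6 Mb in hindbrain and 2.95 and 2.89 Mb in heart, so at most 15.5% of the bases of hindbrain-only stretches were under peaks in any WT hindbrain library.

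**Figure D5:**
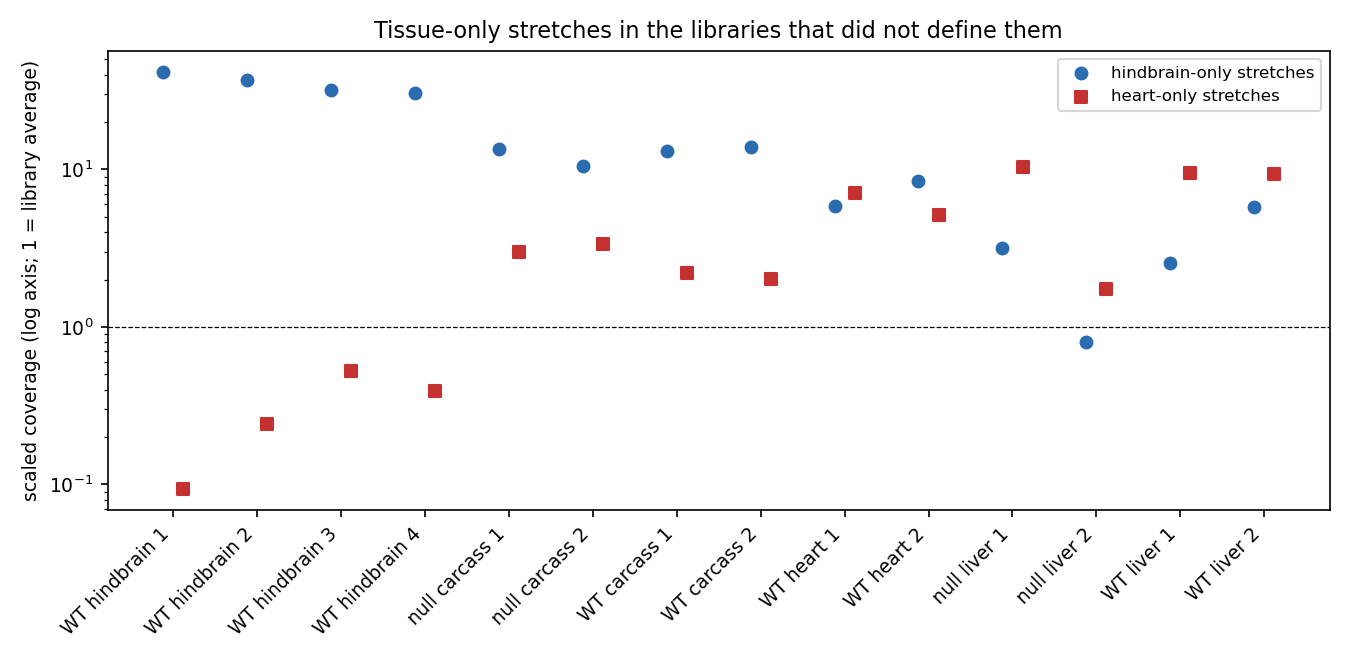
Scaled coverage of hindbrain-only (circles) and heart-only (squares) stretches is plotted on a log axis for the 14 libraries that did not define them, with the library average as a dashed line. The 4 WT hindbrain libraries lie at 30.7 or above for hindbrain-only and at 0.528 or below for heart-only stretches; liver rep 2 of the *Tdg* null embryos is the library of 228 peaks that the study set aside.

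Gene bodies were looked at in the same libraries. Genes called higher in heart had scaled coverages of 1.57 and 2.00 in the WT hearts and 0.88 to 1.29 in the WT hindbrains, and genes called higher in hindbrain had 0.692 and 0.854 in the WT hearts and 1.11 to 1.74 in the WT hindbrains. Neither pair of groups overlapped, and with 4 libraries against 2 an exact two-sided permutation test cannot go below p = 0.133. Counted gene by gene, of the 2516 genes called higher in heart, 22.3% had a higher mean in WT heart and 18.3% a lower one, and of the 1320 called higher in hindbrain 10.8% and 37.2%, against 15.6% and 22.9% of all genes tested. In the *Tdg* null liver of the embryo that gave heart 1, genes called higher in heart had 2.73 and genes called higher in hindbrain 0.848, near the values of the WT livers (2.26 and 2.13, and 0.778 and 0.693). In the *Tdg* null carcasses the 2 sets lay closer together, at 1.72 and 1.75 and at 1.55 and 1.47.

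Single genes varied in which other tissue shared their peaks, the second *Tdg* null liver being left out here for its 228 peaks. *Gata4* had 5.83 in the *Tdg* null liver and 0.336 and 0.24 in the *Tdg* null carcasses of the same embryos as the hearts, whereas *Pax3* had 1.002 in the liver and 4.34 and 3.61 in the carcasses. *Jph2*, *Ryr2* and *Myt1* had 3.51, 1.22 and 0 in the liver, *Tnni3* had 0 in the liver and 0 and 1.69 in the carcasses, and *Gata5* was at 0 in liver and carcasses. *Unc5a* had 4.75 and 4.43 in the carcasses and 1.85 in the liver, and *Unc5b* 3.98 and 3.44 in the carcasses and 8.85 in the liver. Over all bases of the list, sarcomere genes had 1.18 and 1.26 in the carcasses and 1.48 in the liver, below the 2.67 and 3.19 of the hearts, while cardiac transcription factors had 1.95 and 1.84 in the carcasses and 3 in the liver, against 3.18 and 3.64 in the hearts. Anterior *Hox* genes, at 0 in every hindbrain library, had 0.969 and 1.11 in the carcasses and 0.752 in the liver.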

How the data were processed

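The authors sequenced 5fC pull-downs, trimmed the reads, aligned them to NCBIM37 (mm9) with Bowtie2 and ran the MACS caller of SeqMonk separately for every library. The deposited files hold peak positions (first and last base, with no height), read as 1-based on a grid of 100 bp. Use of an input library is not given in the sources used here, the reads were not used here, and the depth behind each library is unknown, so no interval for counting error can be given.

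Coverage was computed with Python 3.11.15 and numpy 2.4.6 over the GENCODE annotation of NCBIM37, with the sequence of the same build. Log2(scaled coverage + 0.25) was fitted with limma 3.58.1 (R 4.3.3; lmFit, eBayes with a trend, 14014 genes, Benjamini-Hochberg adjustment over all of them, called at an adjusted p under 0.05), a fold on this scale understating the change of sparsely covered genes. Signed differences are heart minus hindbrain. P-values rest on the spread between these embryos, moderated by limma with the variances of other genes. Where every library of a tissue was at 0, that tissue added no spread. Such p-values rest on the other tissue and on the variances of other genes. Named were the 10 largest called differences in each direction among genes of at least 10 kb, the 2 largest called differences of each list in each direction, *Tdg*, *Gata4* and the 4 longest stretches of each kind. Members and lists were chosen with earlier results of these data known, and other genes were named after their values were seen. Of 270 list symbols 5 were matched through an older symbol with RefSeq names, 4 stood for several genes and 4 had no match on the autosomes. These last 8 were left out. The alternatives were other pseudocounts, filters, peak definitions, scalings, gene limits and variance models, and leaving out each library. WT, carcass and liver libraries were only described, and sex chromosomes were left out. Values of some list members are not reported here.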

Additional observations from a re-analysis of the deposited data

Results flagged for a closer look

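Among the 4 hindbrain libraries, 37 sets of values were checked for 1 library standing apart by its gap over the range of the group, and 5 did. The usual rate of about 1 in 20 assumes values without ties. In *Tnni3*, *Eif4ebp1* and *Ehd2* the other libraries were all at 0, which makes the gap equal to the range. The 5 sets can therefore not be set against that rate. Hindbrain 2 had the shortest covered length, 67.98 Mb, the next being 89.51 Mb. In *Tnni3*, hindbrain 3 had a scaled coverage of 3.16 and the other three 0. In *Eif4ebp1*, hindbrain 1 had 1.02 and the other three 0. In *Ehd2*, hindbrain 3 had 0.649, again with 0 in the other three. In *Fgfr3*, hindbrain 1 had 2.05, below the next value of 3.21. Their causes were not tested.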

How the results depend on the processing

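Of 816 values of the 48 named genes under 17 alternatives, 711 kept direction and side of the threshold, 105 lost the call and 0 changed direction; 18 genes kept both throughout. Without heart 2, whose removal leaves 1 heart assumed to vary like the hindbrains, calls were lost for *Col1a2* (adjusted p = 0.0859), *Dcc* (0.0737), *Ehd2* (0.075), *Eif4ebp1* (0.0995), *Eng* (0.118), *Epor* (0.197), *Jph2* (0.108), *Mitf* (0.073), *Mybpc3* (0.159), *Nfatc1* (0.105), *Nrxn2* (0.0568), *Tnni3* (0.232), *Wt1* (0.106) and *Xirp2* (0.0744). Without heart 1 they were lost for *Eif4ebp1* (0.0521), *Eng* (0.0562), *Mybpc3* (0.0988), *Tnni3* (0.131) and *Wt1* (0.062), and without 1 hindbrain library for *Nrxn2* (any of the 4), *Tnni3* (1, 2 or 4), *Epor*, *Mitf* and *Nfatc1* (2, 3 or 4), *Eng* (2 or 3), *Nfib* (3) and *Xirp2* (3), at adjusted p of 0.0504 to 0.0873. The 1320 calls higher in hindbrain became 808 with peak midpoints, 1986 with quantile normalisation, 681 after thinning to equal covered length, 2004 with 10 kb on each side and 768 to 1842 when 1 library was left out (768 without hindbrain 3, 1842 without heart 1). The 2516 calls higher in heart became 1608 with quantile normalisation, 664 with scaling to the median gene, 819 after thinning and 1328 to 2338 without 1 library (1328 without heart 2). Genes with separated libraries became 1732 (hindbrain) and 3166 (heart) after thinning, 1628 (heart) with scaling to the median gene, and 2797 to 3551 and 5059 to 5903 without 1 library. Of the calls in the main setting, thinning kept 690 higher in heart and 443 higher in hindbrain. Hindbrain-only stretches became 15717 with peaks of at least 600 bp, 17348 after thinning, 1511 at 1000 bp or more and 28016 to 44008 without 1 library, where a looser rule adds stretches (44008 without heart 1). Heart-only stretches became 20623 after thinning, 10453 at 1000 bp or more and 81742 to 196812 without 1 library (196812 without heart 2). Other causes of these shifts were not tested. No paired analysis was possible because hindbrain and heart came from different embryos. The 2 hearts limit the precision of every comparison, and a gene without peaks may hold 5fC below the threshold of the peak caller.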
